A study of Mus musculus with 40 samples.

Results

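Dmrta1, Dmrta2, Dmrt3, Emx1, Emx2, Lhx2, Gli3, Nr2f1 and Nr2f2 encode transcription factors that pattern the dorsal telencephalon, the part of the embryonic forebrain that forms the cerebral cortex and hippocampus. They were found by NCBI gene ID, all 9 of them, among the 17974 genes measured at either stage. The set was chosen by name with the fold changes of KI over WT forebrain at both stages already known, so the fold changes and adjusted p-values of these 9 genes describe that comparison and are no independent support for it. An adjusted p was present for 8 of the 9 at E18.5 and for all 9 at E14.5.

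RNA sequencing measured polyadenylated RNA from the forebrain of male mouse embryos in 4 groups of 5 libraries each, namely KI at E18.5 (shortly before birth), WT at E18.5, KI at E14.5 (during cortical neurogenesis) and WT at E14.5. KI stands for Chd8 KI, a mouse in which, per the title, the gene for the chromatin remodeler CHD8 is duplicated; WT is wild type. The labels give neither the strain, nor the site or promoter of the added copy, nor any litter for the 5 libraries of a group, so that p-values measure the spread between these libraries, which may be technical in part. CHD8 chromatin immunoprecipitation and ATAC-seq libraries of the series were not analysed here.

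The values come from the comparison of KI with WT that the authors ran at each stage with DESeq2, a negative binomial count model. For each gene their table gives a log2 fold change with its standard error (SE), a p-value adjusted over all genes tested, and a mean normalized count, which is the mean over the 10 libraries of a stage after scaling for depth. No value per library is held in these tables, so the depth and the overlap of single KI and WT libraries are unknown, and precision is given by the SE. A gene was called changed at an adjusted p under 0.05. Chd8, read as higher in KI to set the direction of every fold change, had a log2 fold change of 0.51 (SE 0.038, adjusted p = 1.34e-37) at E18.5 and of 0.64 (SE 0.031, adjusted p = 1.49e-88) at E14.5 per the authors' deposited table.

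The dorsal telencephalon is patterned by signals from its edges, chiefly Wnt and BMP ligands from the cortical hem at the caudomedial border and FGF8 from the rostral midline. Progenitors answer with graded transcription factors: the DMRT and EMX proteins are high caudomedially, the COUP-TF proteins Nr2f1 and Nr2f2 are high caudally, and Lhx2 gives the cortical primordium its identity against that of the hem. Gli3 acts in dorsal progenitors mainly as a repressor of Hedgehog target genes. Several of these factors are not exclusive to the dorsal side, since the COUP-TF genes, Lhx2 and Gli3 are also active in ventral progenitors or interneurons. In whole forebrain, fewer cells of a type and less RNA per cell cannot be told apart.

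Dmrta1 was the only one of the 9 genes called at either stage, and it rose in KI forebrain at E14.5. At E18.5, 0 of the 8 tested members were called, beside 0.0662% of the 13601 genes tested (0.0441% higher and 0.0221% lower in KI). At E14.5, 1 of 9 members rose and 0 fell, beside 1.21% of 13417 genes called in either direction, 0.738% higher and 0.47% lower in KI. The unadjusted p of the authors' deposited table was under 0.05 for 0 of 8 members at E18.5, beside 5.96% of all genes tested, and for 3 of 9 at E14.5 (Dmrta1, Dmrt3 and Gli3), beside 11.5% of all genes tested. The log2 fold change was above 0 for 5 of 8 members at E18.5, beside 48.8% of all genes tested, and for 8 of 9 at E14.5, beside 49.8%. The members' median log2 fold change was 0.00 at E18.5 and 0.06 at E14.5, while the median over all genes tested was 0.00 at both stages.

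**Figure D1:**
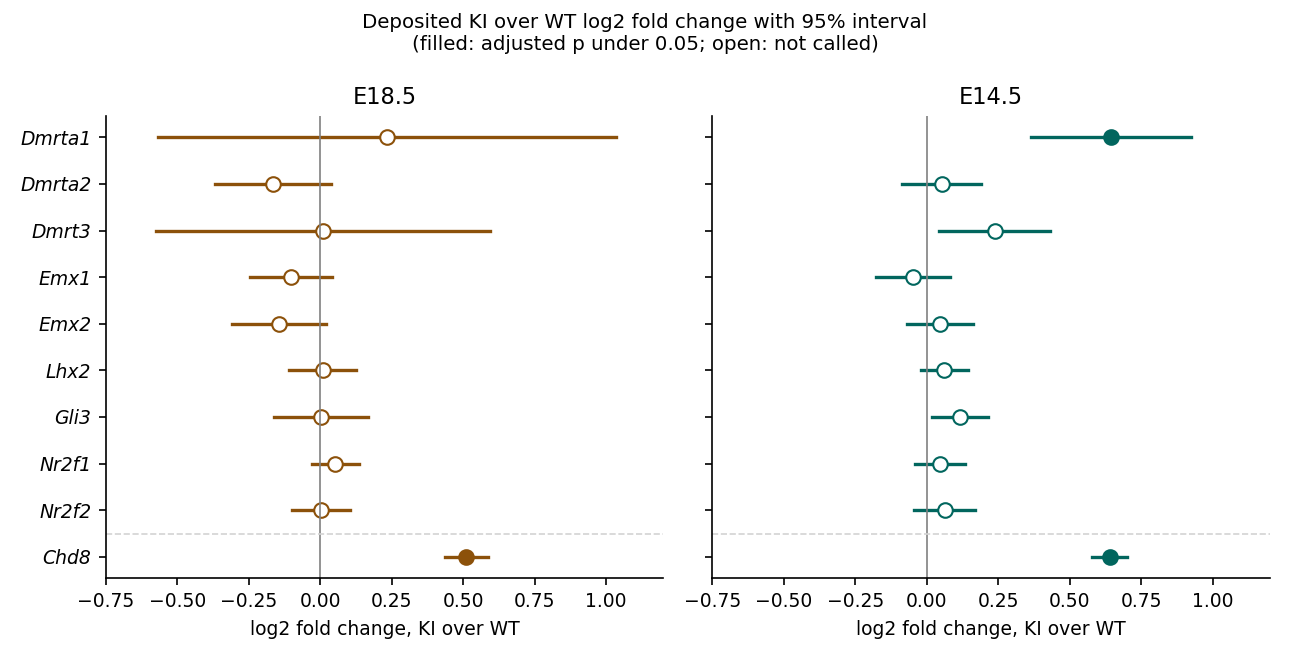
Log2 fold change of KI over WT (horizontal axis) for the 9 genes and, under the dashed line, Chd8, at E18.5 (left) and E14.5 (right); circles are the deposited estimates, bars their 95% intervals, and filled circles mark an adjusted p under 0.05. Beside Chd8, the filled circle is that of Dmrta1 at E14.5, at 0.64, and its bar at E18.5 runs from −0.57 to 1.04.

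The DMRT genes encode proteins with a DM domain, a zinc-finger DNA-binding domain named after the sex-determination genes doublesex and mab-3. In the mouse cortex Dmrt3 and Dmrta2 hold back ventral fates, and Dmrta2 is needed for the cortical hem to form. Dmrta1 (gene ID 242523, chromosome 4 at 89688198 to 89694766 in GRCm38.p6, plus strand) is their paralog and is made in the same cortical progenitors. Its mean normalized count was 17.3 at E18.5 and 132 at E14.5 per the authors' deposited table. At E18.5 its log2 fold change was 0.23 (SE 0.409, 95% interval −0.57 to 1.04), with no adjusted p, per the authors' deposited table. At E14.5 it stood at 0.64 (SE 0.142, adjusted p = 0.00205) per the authors' deposited table, which is 56.4% more in KI than in WT (95% interval 28.9% to 89.8%). That was the 20th highest log2 fold change and the 39th lowest p of 13417 genes, and it was close to the log2 fold change of Chd8 itself, 0.64. The call ended when the Wald statistics of all genes were rescaled to their own spread (adjusted p = 0.0679), and over all alternatives its adjusted p ran between 0.00184 and 0.0679. Its count at E18.5 lies under 32.7, the lowest of any gene with an adjusted p at that stage. Its unadjusted p there was 0.567 by the authors' DESeq2 test, and the deposited adjustment left it out. When p-values were adjusted over every gene that had one, all 9 members were covered at E18.5 and none was called.

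Dmrt3 (gene ID 240590, chromosome 19) had mean normalized counts of 34.3 at E18.5 and 263 at E14.5 per the authors' deposited table. For Dmrt3 the log2 fold change of 0.01 at E18.5 (SE 0.297, adjusted p = 0.9999) per the authors' deposited table carried a 95% interval of −0.57 to 0.59. At E14.5 it had the second largest estimate of the 9, at 0.24 (SE 0.099, p = 0.0159, adjusted p = 0.267) per the authors' deposited table, with an interval of 0.04 to 0.43. Dmrta2 (gene ID 242620, chromosome 4) had means of 258 at E18.5 and 1121 at E14.5 per the authors' deposited table. Its log2 fold changes were −0.17 (SE 0.103, adjusted p = 0.981) at E18.5 and 0.05 (SE 0.071, adjusted p = 0.843) at E14.5 per the authors' deposited table. At E14.5 the 95% interval of Dmrta2, −0.09 to 0.19, lay wholly below that of Dmrta1, 0.37 to 0.92. The difference between these paralogs was not tested, since their estimates share the libraries.

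Of 5 other listed DMRT genes, 2 had an adjusted p at each stage and 0 were called; 0 at E18.5 and 2 at E14.5 had an unadjusted p under 0.05. Dmrt2, a regulator of the embryonic trunk muscle and skeleton that lies 48.5 kb beyond Dmrt3, was at −0.09 (SE 0.170, adjusted p = 0.9999) at E18.5 and at −0.55 (SE 0.261, p = 0.0351, adjusted p = 0.376) at E14.5 per the authors' deposited table. Dmrtb1 lay above 0, at 0.27 (SE 0.148, adjusted p = 0.915) at E18.5 and at 0.26 (SE 0.102, p = 0.0123, adjusted p = 0.237) at E14.5 per the authors' deposited table. Dmrt1, which acts in the testis, had a mean normalized count of 11.8 and no adjusted p at E14.5 per the authors' deposited table.

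Dmrta1 and Dmrta2 lie on the same strand of chromosome 4, and the bases before their annotated starts are shown because Dmrta1 was called and Dmrta2 was not. They come from RefSeq (GRCm38.p6), plus strand, at chr4:89687948-89688197 for Dmrta1 and chr4:109977775-109977988 for Dmrta2. Capitals mark a match on either strand to any of 8 motifs. These are the TATA box TATAAA, the CCAAT box, the GC box GGGCGG (which can overlap itself), the homeodomain core TAATTA, the DMRT core ACATTGT, the nuclear receptor half-site AGGTCA, the GLI consensus GACCACCCA and the TCF/LEF core CTTTGA.
Dmrta1: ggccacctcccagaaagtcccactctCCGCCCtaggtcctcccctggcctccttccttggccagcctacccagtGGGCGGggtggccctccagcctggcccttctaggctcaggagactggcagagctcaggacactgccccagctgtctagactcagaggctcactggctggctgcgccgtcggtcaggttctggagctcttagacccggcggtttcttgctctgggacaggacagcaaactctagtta
Dmrta2: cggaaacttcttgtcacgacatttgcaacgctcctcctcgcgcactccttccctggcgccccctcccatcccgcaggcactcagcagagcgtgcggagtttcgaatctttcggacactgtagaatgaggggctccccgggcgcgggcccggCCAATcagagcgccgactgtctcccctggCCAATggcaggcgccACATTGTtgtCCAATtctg
The Dmrta1 stretch held GGGCGG on both strands and no other listed motif, whereas Dmrta2 held CCAAT boxes and 1 ACATTGT.

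RefSeq gave 11 promoter windows of 300 bases (250 before to 50 after a start) for the 9 genes, among 32851 windows of all genes. GGGCGG stood in windows of 6 members, beside 35.7% of all windows and 63.1% of windows of genes tested at E14.5. CCAAT stood in those of 4 members (Dmrt3, Dmrta2, Emx2 and Nr2f2), beside 37.4% of all windows and 37.7% of those of tested genes. ACATTGT was found for Dmrta2, beside 2.96% of all windows and 1.47% of those of tested genes, and TAATTA for Emx2, beside 5.29% and 2.59%. CTTTGA stood in the window of Nr2f2, beside 16.0% of all windows and 11.4% of those of tested genes. In none of the 11 stood TATAAA (13.6% of all windows, 6.77% of those of tested genes), AGGTCA (16.3% and 11.7%) or GACCACCCA (0.253% and 0.209%). The median GC content was 68% in the member windows, 61% in windows of genes tested at E14.5 and 52.7% in all windows. Such matches are letters in a window and say nothing on whether a factor binds there.

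Emx1 and Emx2 are homeobox genes of the cortical primordium, and Emx2 is required for the hippocampus and for caudal cortical areas in the mouse. Emx1 (gene ID 13796, chromosome 6) had mean normalized counts of 520 at E18.5 and 1281 at E14.5 per the authors' deposited table. Its estimate lay below 0 at both stages, with log2 fold changes of −0.10 (SE 0.074, adjusted p = 0.9999) at E18.5 and −0.05 (SE 0.067, adjusted p = 0.845) at E14.5 per the authors' deposited table. Emx2 (gene ID 13797, chromosome 19) had means of 434 at E18.5 and 1098 at E14.5 per the authors' deposited table. Its log2 fold changes were −0.14 (SE 0.084, adjusted p = 0.949) at E18.5 and 0.05 (SE 0.060, adjusted p = 0.832) at E14.5 per the authors' deposited table. Neither EMX gene passed the test at either stage. At these SEs the smallest log2 fold change, in either direction, that could have been called had a size of 0.31 for Emx1 and 0.35 for Emx2 at E18.5, and of 0.23 for Emx1 and 0.20 for Emx2 at E14.5. The antisense transcript Emx2os, annotated 0.055 kb from Emx2, was at 0.14 (SE 0.132) at E18.5 and at 0.16 (SE 0.101, adjusted p = 0.560) at E14.5 per the authors' deposited table; whether counting used strand is not given in the sources used here.

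Lhx2 is a LIM homeobox gene and a selector of cortical identity. At E14.5 it had the smallest SE of the 9. Its mean normalized count was 2768 at E18.5 and 6087 at E14.5 per the authors' deposited table. Its log2 fold changes were 0.01 (SE 0.060, adjusted p = 0.9999) at E18.5 and 0.06 (SE 0.042, adjusted p = 0.610) at E14.5 per the authors' deposited table. The 95% interval at E14.5 spanned −1.42% to 10.4%, and the smallest log2 fold change that could have been called there had a size of 0.14.

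LIM homeodomain proteins work with LIM-binding cofactors, and among 15 listed relatives and cofactors 0 of 13 tested were called at E18.5, while 1 of 14 fell and 0 rose at E14.5. The one that fell was Ldb2, a LIM-domain-binding cofactor, at −0.11 (SE 0.060, adjusted p = 0.938) at E18.5 and −0.25 (SE 0.071, adjusted p = 0.0438) at E14.5 per the authors' deposited table. Its call ended when p-values were adjusted over every gene with a p-value (adjusted p = 0.0585), and its adjusted p at E14.5 ran between 0.0397 and 0.441 over all alternatives. Ldb1, a cofactor that binds Lhx2, was at −0.07 (SE 0.043, adjusted p = 0.992) at E18.5 and 0.08 (SE 0.043, adjusted p = 0.466) at E14.5 per the authors' deposited table. The median log2 fold change of the list was 0.05 at E18.5 and 0.01 at E14.5.

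Gli3 (gene ID 14634, chromosome 13) is the zinc-finger effector whose repressor form restrains Hedgehog target genes, and mice without it fail to form a proper cortical hem. Its mean normalized count was 505 at E18.5 and 2632 at E14.5 per the authors' deposited table. It had a log2 fold change of 0.00 (SE 0.084, adjusted p = 0.9999) at E18.5 and of 0.12 (SE 0.050, p = 0.0202, adjusted p = 0.296) at E14.5 per the authors' deposited table. At E14.5 that is 8.34% more in KI than in WT (95% interval of the log2 fold change 0.02 to 0.21), and it did not pass over all genes.

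Of 15 listed Hedgehog pathway genes beside Gli3, none was called at either stage, and 1 at E18.5 and 2 at E14.5 had an unadjusted p under 0.05. Their median log2 fold change was 0.00 at E18.5, with 7 of 15 above 0, and 0.13 at E14.5, with 14 of 15 above 0. Of all genes tested, 48.8% at E18.5 and 49.8% at E14.5 were above 0. Ptch1, the Hedgehog receptor and itself a target of the pathway, was at 0.11 (SE 0.060, adjusted p = 0.906) at E18.5 and 0.18 (SE 0.074, p = 0.0164, adjusted p = 0.268) at E14.5 per the authors' deposited table. Gli1, the activator that is transcribed in response to the signal, was at −0.02 (SE 0.150, adjusted p = 0.9999) at E18.5 and 0.16 (SE 0.137, adjusted p = 0.724) at E14.5 per the authors' deposited table.

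Nr2f1 and Nr2f2 encode the nuclear receptors COUP-TFI and COUP-TFII, which favour caudal and sensory cortical identity, and Nr2f2 also marks interneurons of the caudal ganglionic eminence. Nr2f1 (gene ID 13865, chromosome 13) had mean normalized counts of 3363 at E18.5 and 4779 at E14.5 per the authors' deposited table. The log2 fold change of Nr2f1 was 0.05 at both stages per the authors' deposited table (SE 0.042 and adjusted p = 0.9999 at E18.5, SE 0.045 and adjusted p = 0.757 at E14.5). Nr2f2 (gene ID 11819, chromosome 7) had means of 1798 at E18.5 and 2372 at E14.5 per the authors' deposited table. It stood at 0.00 (SE 0.051, adjusted p = 0.9999) at E18.5 and at 0.06 (SE 0.055, adjusted p = 0.723) at E14.5 per the authors' deposited table. Neither passed, and the smallest callable log2 fold change had a size of 0.18 for Nr2f1 and 0.21 for Nr2f2 at E18.5, and of 0.15 for Nr2f1 and 0.19 for Nr2f2 at E14.5.

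Of 9 listed relatives and cofactors of the COUP-TF genes, 8 were tested at each stage and 0 were called, with 2 of 8 above 0 at each; 0 at E18.5 and 1 at E14.5 had an unadjusted p under 0.05. Nr2f6, the third COUP-TF gene, was at −0.11 (SE 0.074, adjusted p = 0.992) at E18.5 and −0.05 (SE 0.070, adjusted p = 0.860) at E14.5 per the authors' deposited table. Nr2e1 (Tlx), a nuclear receptor of neural stem cells, was at −0.07 (SE 0.076, adjusted p = 0.9999) at E18.5 and 0.08 (SE 0.039, adjusted p = 0.438) at E14.5 per the authors' deposited table.

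**Figure D2:**
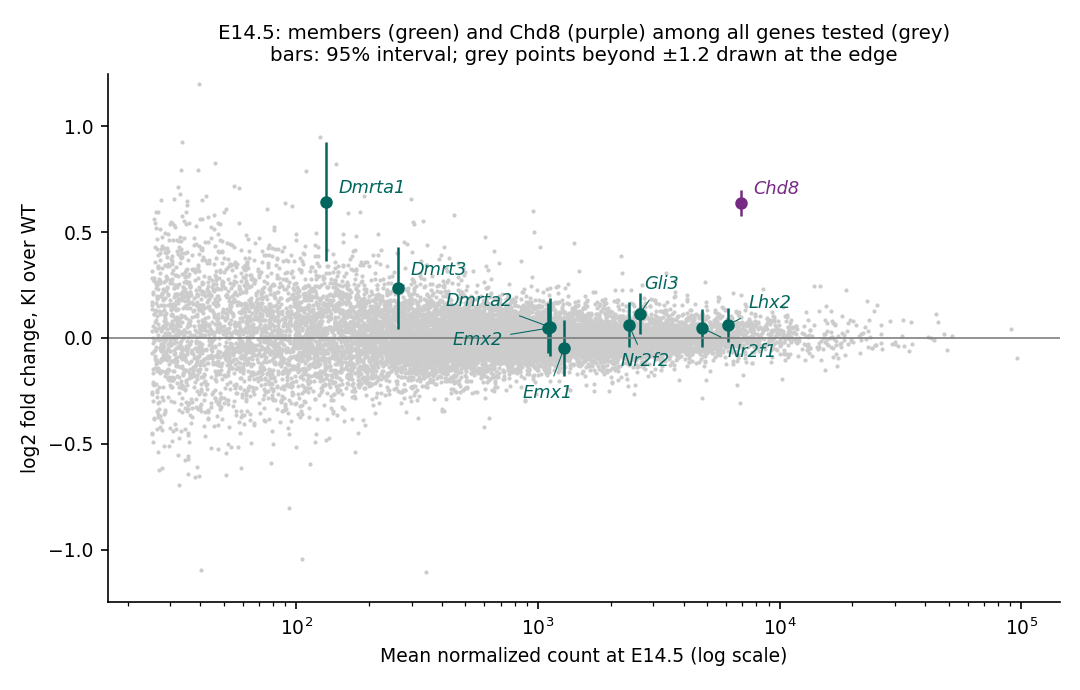
Log2 fold change of KI over WT (vertical axis) against mean normalized count on a log scale (horizontal axis) at E14.5, for the 13417 genes tested (grey), the 9 genes (green) and Chd8 (purple), with 95% intervals as bars. Dmrta1, at 0.64 and a count of 132, stands at the upper edge of the grey points of like count, and the members other than Dmrta1 and Dmrt3 lie between −0.05 and 0.12.

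All 9 genes had a lower level at E18.5 than at E14.5. For this the mean normalized counts of each stage, KI and WT libraries together, were scaled to a sum of 1000000, and they are called scaled counts here. The tables were normalized separately and hold no values per library, so these differences of level have no test. Of 13390 genes tested at E14.5 and measured at E18.5, 53.1% were lower at E18.5, the median log2 difference was −0.04, and the 5th to 95th percentiles ran from −1.10 to 1.33.

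The DMRT genes and Gli3 showed the greatest differences of level. Dmrt3 had 1.69 scaled counts at E18.5 and 14.1 at E14.5, so that 11.98% of its E14.5 level was left. For Dmrta1 the levels were 0.852 scaled counts at E18.5 and 7.08 at E14.5, with 12.03% left. Gli3 was at 24.8 scaled counts at E18.5 and 140.7 at E14.5 (17.6% left), and Dmrta2 at 12.7 at E18.5 and 59.9 at E14.5 (21.2% left). Among all 13390 genes, 0.0299% had a log2 difference as low as that of Dmrt3, 0.187% as that of Gli3 and 0.732% as that of Dmrta2. A further 27 genes tested at E14.5 had no entry at E18.5 and are left out of these shares. The shares would be larger if those genes were counted as lower.

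The homeobox genes kept more of their level. Emx2 had 21.4 scaled counts at E18.5 and 58.7 at E14.5 (36.4% left), Emx1 had 25.6 at E18.5 and 68.5 at E14.5 (37.4% left), and Lhx2 had 136 at E18.5 and 325 at E14.5 (41.8% left). The COUP-TF genes kept the largest share, with Nr2f1 at 165 scaled counts at E18.5 and 255 at E14.5 (64.7% left) and Nr2f2 at 88.4 at E18.5 and 126.8 at E14.5 (69.7% left). By share of level left, the order was thus Dmrt3 and Dmrta1, Gli3, Dmrta2, Emx2, Emx1, Lhx2, Nr2f1 and Nr2f2. Whether neighbours in that order differ beyond their spread is unknown, since no values per library are held. Chd8 itself was at 305 scaled counts at E18.5 and 369 at E14.5 (82.7% left).

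**Figure D3:**
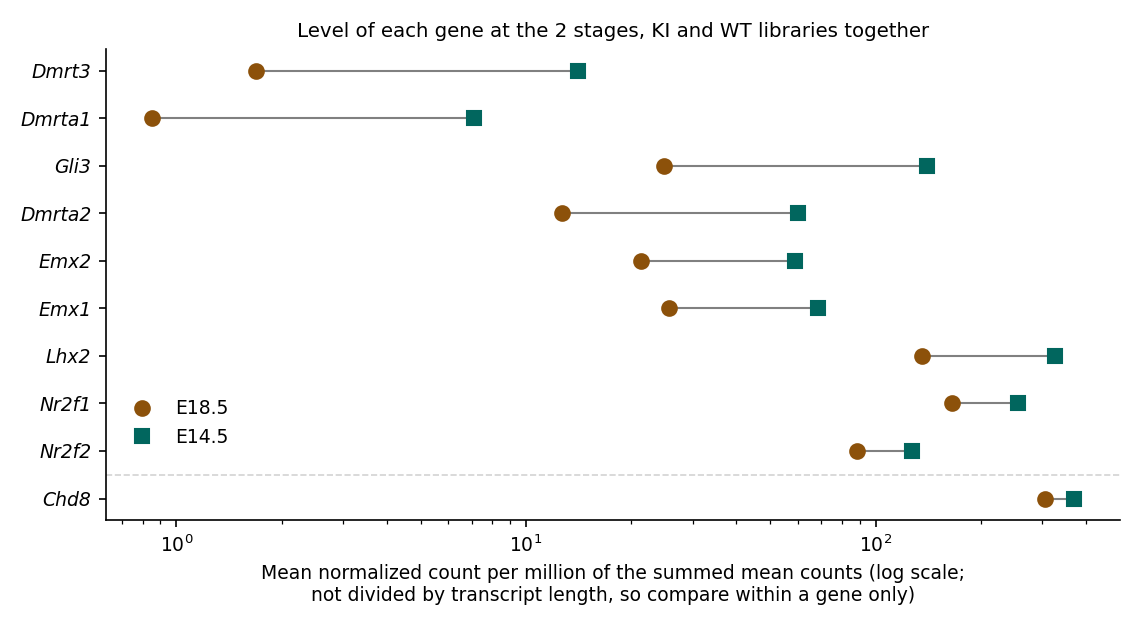
Scaled count (mean normalized count scaled to a sum of 1000000 per stage, horizontal log axis) of each gene at E18.5 (brown circles) and E14.5 (green squares), KI and WT libraries together, ordered by the size of the difference. All 9 circles lie left of their squares, and the order runs from Dmrt3 (1.69 at E18.5, 14.1 at E14.5) to Nr2f2 (88.4 at E18.5, 126.8 at E14.5).

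Among the other lists, some had lower levels at E18.5 and others did not. Of 19 other cortical progenitor transcription factors present at both stages, 17 were lower at E18.5, with a median log2 difference of level of −1.22, beside −1.46 for the 9 members. Pax6, the lateral-high regulator of cortical progenitors, had 29.1 scaled counts at E18.5 and 106.8 at E14.5. Hmga2, a chromatin protein of early neural stem cells, stood at 0.915 scaled counts at E18.5 and 21.9 at E14.5, a log2 difference of −4.58. Medians were −0.82 for ventral telencephalon factors (11 of 13 lower), −0.84 for Hedgehog pathway genes (12 of 15 lower), and −0.91 for diencephalon markers (5 of 6 lower). Cajal-Retzius markers (−0.84, 5 of 8 lower), erythroid markers (−0.96, 3 of 3 lower) and LIM relatives and cofactors (−0.55, 9 of 14 lower) had medians below 0 too. They lay nearer 0 for hem genes (−0.33, 9 of 15 lower) and antihem genes (−0.17, 3 of 6 lower). So did those of COUP-TF relatives (−0.03, 5 of 8 lower) and rostral FGF genes (0.10, 7 of 14 lower). The lowest single genes of these lists lay at −1.95, −0.83, −2.22 and −2.69, in that order. The median of 3 other DMRT genes was 1.01, with 1 lower. That median is the value of a gene with mean normalized counts of 11.7 at E18.5 and 5.37 at E14.5, and no adjusted p at either stage. Cortical area genes, most of which act in neurons, went the other way, with 2 of 13 lower and a median of 0.91. Mef2c, a transcription factor of cortical neurons, was at 590 scaled counts at E18.5 and 126.4 at E14.5. Markers of postmitotic neurons had a median of 0.25, with 2 of 7 lower. The neuronal tubulin Tubb3 was at 2142 scaled counts at E18.5 and 1600 at E14.5. Neurod6, among those that were lower, was at 454 at E18.5 and 545 at E14.5. The median was 2.68 for choroid plexus markers (1 of 11 lower) and 2.03 for meninges and fibroblast markers (1 of 8 lower). The part of tissue makeup in the members' lower levels was not tested.

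**Figure D4:**
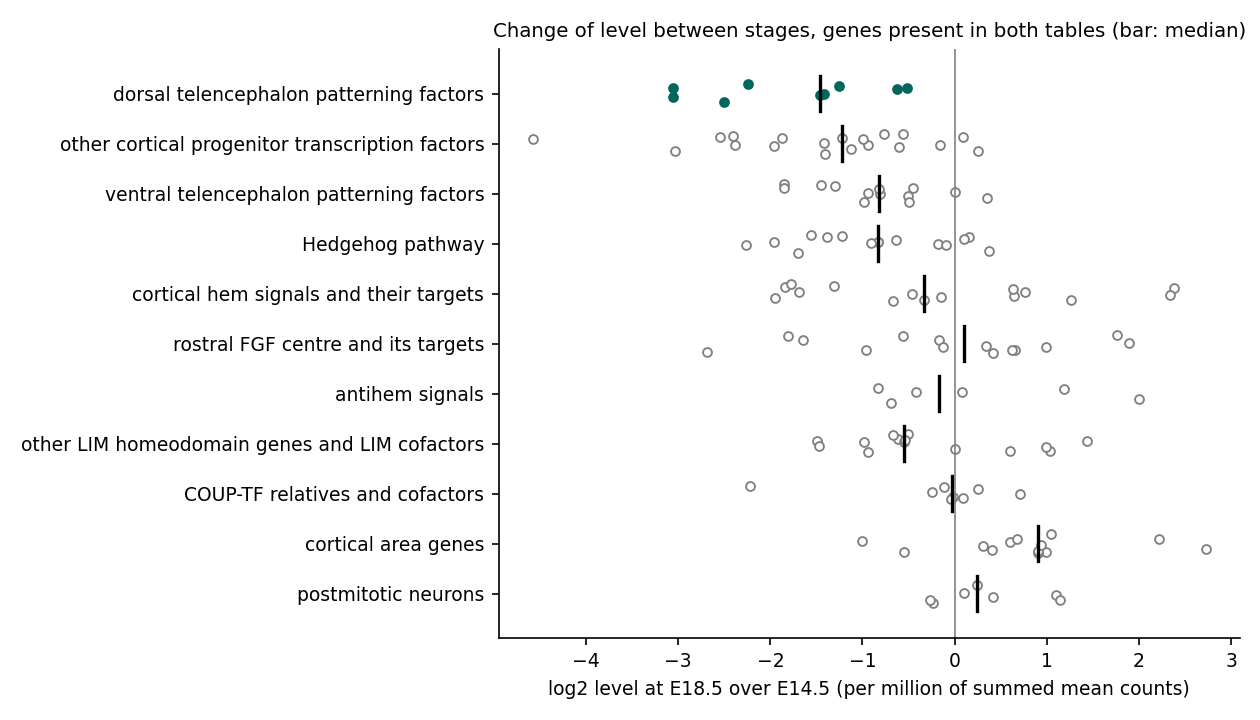
Log2 level at E18.5 over E14.5 (horizontal axis), from scaled counts, for the genes of 11 lists; each point is a gene present at both stages, filled for the 9 members, and black bars are medians. The members' median lies at −1.46, next to −1.22 for other cortical progenitor transcription factors and opposite to 0.91 for cortical area genes.

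The response to the added Chd8 copy was compared between stages by subtracting the log2 fold change at E14.5 from that at E18.5. None of the 8 members tested at both stages differed after adjustment (adjusted p = 0.999 for each, two-sided normal test with Benjamini-Hochberg adjustment over 13106 genes). Over all genes 0% were called and 4.52% had an unadjusted p under 0.05; the members had 0 of 8 by either rule. Dmrta1 differed by −0.41 (95% interval −1.26 to 0.44), with no adjusted p, so its call at E14.5 alone does not show that the response differed between stages. Dmrta2 differed by −0.22 (95% interval −0.46 to 0.03) and Emx2 by −0.19 (−0.39 to 0.01), the intervals that came nearest to leaving 0. Dmrt3 differed by −0.23 (−0.84 to 0.39) and Gli3 by −0.11 (−0.31 to 0.08). The difference was −0.05 for Emx1 and for Lhx2, −0.06 for Nr2f2 and 0.01 for Nr2f1. Of the 9 members 8 lay below 0, beside 50.4% of the 13106 genes tested at both stages, a set that leaves out Dmrta1. The difference subtracts the E14.5 log2 fold change, which was above 0 for 8 of 9 members and known when they were chosen. The count below 0 is therefore no separate result. Chd8's own fold change differed by −0.13 (95% interval −0.22 to −0.03, adjusted p = 0.999 by the same normal test). That interval did not reach 0, whereas the intervals of all the members did.

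Lists of genes that act with the members were read in the same tables, by count and median, with no test of a list. Over all genes tested, 0.0662% at E18.5 and 1.21% at E14.5 were called. An unadjusted p under 0.05 was held by 5.96% at E18.5 and 11.5% at E14.5, and 48.8% and 49.8% were above 0. At E18.5 no gene of any of the 17 lists was called. Of 20 other cortical progenitor transcription factors tested at E14.5, 1 rose and 0 fell, 17 were above 0 and the median log2 fold change was 0.11; at E18.5, 9 of 18 tested were above 0 and the median was 0.01. The unadjusted p was under 0.05 for 0 of them at E18.5 and 8 at E14.5. The one that rose was Hmga2, at 0.43 (SE 0.096, adjusted p = 0.00242) at E14.5 per the authors' deposited table, a call that ended with rescaled Wald statistics (adjusted p = 0.0729, range over alternatives 0.00217 to 0.0729). Like Dmrta1, Hmga2 had no adjusted p at E18.5, its mean normalized count there being 18.6 per the authors' deposited table. Pax6 was at 0.08 (SE 0.064, adjusted p = 0.9999) at E18.5 and −0.01 (SE 0.042, adjusted p = 0.963) at E14.5 per the authors' deposited table.

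Ventral telencephalon factors, some of which the DMRT and Pax6 proteins oppose in dorsal progenitors, had a median log2 fold change of 0.07 at E18.5, with 10 of 12 above 0, and of 0.16 at E14.5, with 12 of 13 above 0. The unadjusted p was under 0.05 for 2 at E18.5 and 8 at E14.5, beside 5.96% and 11.5% of all genes tested. The 2 at E18.5 went opposite ways, with Olig2 at −0.19 (SE 0.072, adjusted p = 0.598) and Lhx6 at 0.13 (SE 0.062, adjusted p = 0.805) per the authors' deposited table. Of the 13 ventral factors tested at E14.5, 1 rose, which was Dlx1, a homeobox gene of interneuron progenitors. Dlx1 was at 0.08 (SE 0.046, adjusted p = 0.960) at E18.5 and 0.17 (SE 0.047, adjusted p = 0.0369) at E14.5 per the authors' deposited table. That call ended with rescaled Wald statistics (adjusted p = 0.333) and with Benjamini-Yekutieli adjustment (adjusted p = 0.372), the lowest over alternatives being 0.0305. Gsx2, the ventral determinant held back by Dmrt3 and Dmrta2, was at −0.12 (SE 0.221, adjusted p = 0.9999) at E18.5 and 0.16 (SE 0.138, adjusted p = 0.722) at E14.5 per the authors' deposited table. Gsx1 was at 0.35 (SE 0.207, adjusted p = 0.532) at E14.5 per the authors' deposited table.

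The signalling centres around the cortex gave no call. Their unadjusted p was under 0.05 for no gene at E18.5, and at E14.5 for 1 of 11 hem, 5 of 14 rostral FGF and 2 of 5 antihem genes tested. The hem list had a median log2 fold change of −0.07 over 10 genes at E18.5 and of 0.00 over 11 at E14.5. Wnt8b, a Wnt ligand of the hem and caudomedial cortex, was at −0.03 (SE 0.199, adjusted p = 0.9999) at E18.5 and 0.03 (SE 0.125, adjusted p = 0.956) at E14.5 per the authors' deposited table. Wnt3a, the hem ligand needed for the hippocampus, was at −0.02 (SE 0.240, adjusted p = 0.985) at E14.5 per the authors' deposited table. The rostral FGF list had medians of −0.03 at E18.5 and −0.05 at E14.5, with Fgf17 at 0.56 (SE 0.247, p = 0.0229, adjusted p = 0.312) at E14.5, while Fgf8 had a mean normalized count of 3.25 and no adjusted p per the authors' deposited table. Antihem genes had medians of 0.00 at E18.5 and −0.12 at E14.5, among them the secreted Wnt antagonist Sfrp2 at 0.02 (SE 0.083, adjusted p = 0.9999) at E18.5 and 0.03 (SE 0.078, adjusted p = 0.948) at E14.5 per the authors' deposited table.

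Cortical area genes, which read out the patterning factors in neurons, had medians of −0.03 at E18.5 and −0.09 at E14.5. Of 13 tested at each stage, none was called at E18.5 (1 with an unadjusted p under 0.05), while at E14.5 2 fell and 0 rose (4 with an unadjusted p under 0.05). Id2, an inhibitor of bHLH factors in upper and deep cortical layers, was at 0.01 (SE 0.047, adjusted p = 0.9999) at E18.5 and fell by 0.26 (SE 0.058, adjusted p = 0.00205) at E14.5 per the authors' deposited table, which did not hold with rescaled Wald statistics (adjusted p = 0.0680, range over alternatives 0.00184 to 0.0680). Mef2c was at −0.10 (SE 0.039, adjusted p = 0.709) at E18.5 and fell by 0.23 (SE 0.047, adjusted p = 0.000687) at E14.5 per the authors' deposited table. Rorb, the layer 4 nuclear receptor, was at −0.13 (SE 0.066, adjusted p = 0.845) at E18.5 and −0.01 (SE 0.097, adjusted p = 0.988) at E14.5, and Lmo4, a LIM-only protein graded across the cortex, was at −0.03 (SE 0.041, adjusted p = 0.9999) at E18.5 and −0.09 (SE 0.042, adjusted p = 0.414) at E14.5 per the authors' deposited table.

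**Figure D5:**
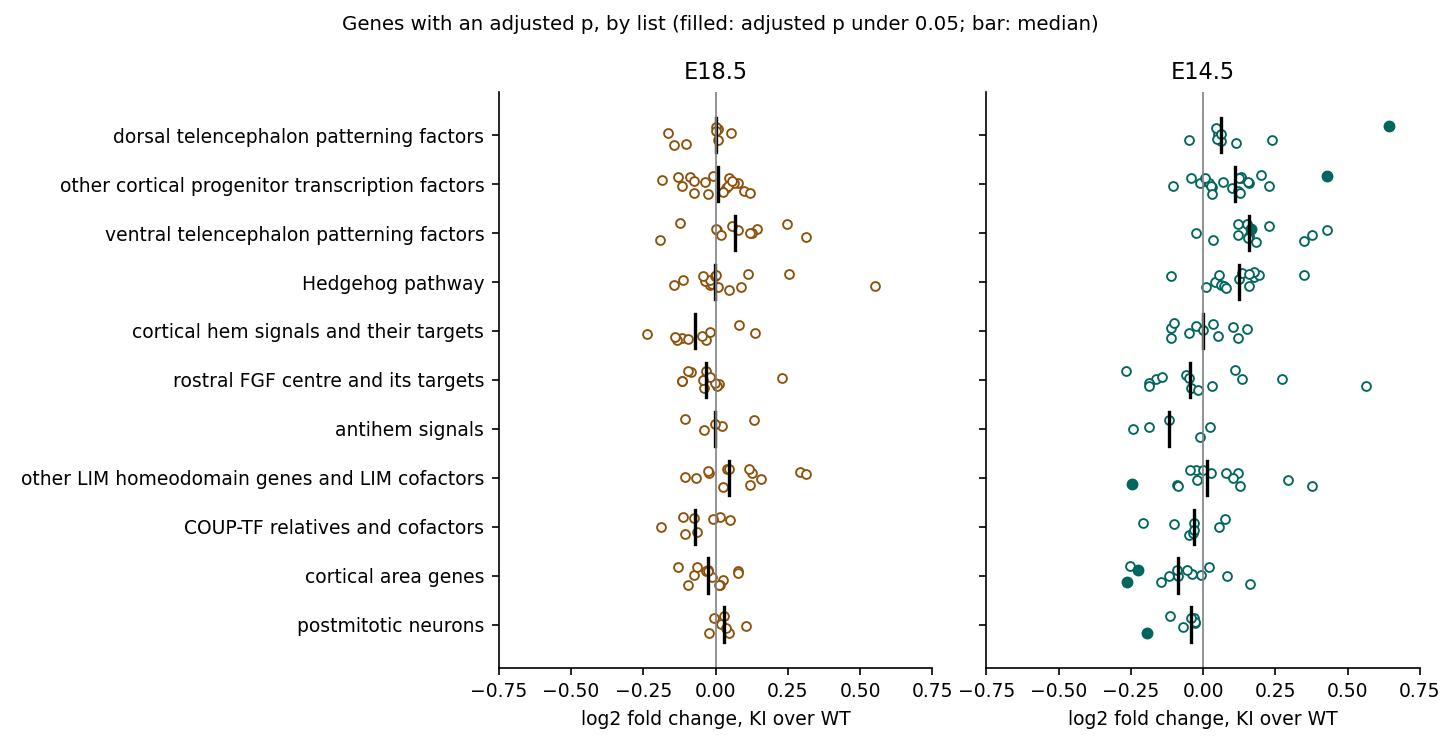
Log2 fold change of KI over WT (horizontal axis) at E18.5 (left) and E14.5 (right) for the genes of 11 lists; each point is a gene with an adjusted p, filled where it is under 0.05, and black bars are medians. The E18.5 panel holds no filled point, and at E14.5 the filled points are Dmrta1, Hmga2 and Dlx1 above 0 and Ldb2, Id2, Mef2c and Neurod6 below 0.

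Some markers of other cells changed with genotype at E14.5. Of 4 erythroid markers tested at E14.5, 2 rose and all 4 were above 0, with Hbb-y, an embryonic beta globin, at 0.50 (SE 0.068, adjusted p = 1.64e-09) and Hba-x, an embryonic alpha globin, at 0.59 (SE 0.149, adjusted p = 0.0118) per the authors' deposited table. All 7 neuron markers were below 0 at E14.5, at −0.20 to −0.03, and 1 fell, which was Neurod6, a bHLH factor of cortical projection neurons, at −0.02 (SE 0.060, adjusted p = 0.9999) at E18.5 and −0.20 (SE 0.046, adjusted p = 0.00438) at E14.5 per the authors' deposited table. The calls of Hba-x and Neurod6 ended with rescaled Wald statistics (adjusted p = 0.178 and 0.104), with ranges over alternatives of 0.0104 to 0.178 and 0.00388 to 0.104. Of 5 tested meninges and fibroblast markers all were above 0 at E14.5 and none was called, Col1a2 being at 0.61 (SE 0.207, adjusted p = 0.118) per the authors' deposited table. Cajal-Retzius markers had medians of 0.06 at E18.5 and 0.03 at E14.5 with none called, and 5 of 5 tested diencephalon markers were above 0 at E18.5 and 3 of 5 at E14.5, with none called and an unadjusted p under 0.05 for 1 at E18.5 and 2 at E14.5. Gbx2, a homeobox gene of the thalamus, was at 0.70 (SE 0.224, p = 0.00186, adjusted p = 0.347) at E18.5 and 0.38 (SE 0.158, p = 0.0172, adjusted p = 0.273) at E14.5 per the authors' deposited table. Summed levels by genotype are not known for these lists, and their part in the change of Dmrta1 was not tested. Of 11 hindbrain genes, 2 had an entry at E14.5 (summed mean normalized count 2.57) and 0 at E18.5.

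Markers of tissue at the edges of the forebrain had wide errors at E18.5. The SEs of choroid plexus markers ran from 0.44 to 1.88 at E18.5, and 5 of 11 had no p-value. Those of meninges and fibroblast markers ran from 0.41 to 1.88, with 7 of 9 without a p-value. SEs of the 9 members at E18.5 ran from 0.042 to 0.409.

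The flanks of the members gave no call either. For each member the nearest gene on either side with an adjusted p at either stage was taken, which gave 18 genes. An adjusted p was present for 17 of them at E18.5 and for all 18 at E14.5, and none was called. Of the 18, 0 at E18.5 and 2 at E14.5 had an unadjusted p under 0.05. Their log2 fold changes ran from −0.17 to 0.28 at E18.5 and from −0.55 to 0.18 at E14.5. Mtap, 507 kb before Dmrta1, was at −0.01 (SE 0.088) at E18.5 and −0.05 (SE 0.064) at E14.5, and Elavl2, an RNA-binding protein gene 1517 kb beyond it, was at 0.04 (SE 0.042) at E18.5 and −0.04 (SE 0.044) at E14.5 per the authors' deposited table. Sfxn5, 8.59 kb from Emx1, was at −0.08 (SE 0.063, adjusted p = 0.9999) at E18.5 and 0.18 (SE 0.068, p = 0.00884, adjusted p = 0.201) at E14.5 per the authors' deposited table. Nr2f1 overlaps the noncoding A830082K12Rik, which was at −0.04 (SE 0.088) at E18.5 and 0.04 (SE 0.084) at E14.5 per the authors' deposited table. Nr2f2 overlaps B130024G19Rik, at 0.28 (SE 0.294) at E18.5 and 0.06 (SE 0.219) at E14.5 per the authors' deposited table. Reads of such overlapping genes cannot be told apart without strand. Noncoding genes that overlap Dmrta2, Lhx2 and Gli3 in RefSeq had no entry at either stage.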

How the data were processed

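Values come from the authors' deposited tables of KI against WT, 1 per stage, with 0 columns of per-sample values. Per the submitters' processing notes, the build was mm10, and the authors' tools included DESeq2 1.26.0, featureCounts 2.0.0, HISAT2 2.1.0 and Trimmomatic 0.39; their settings and any covariates are not given in the sources used here. Per the file headers, each deposited table holds a mean normalized count (a signal per gene, scaled by the authors), a log2 fold change, its standard error, the Wald statistic (a score), and p-values before and after adjustment. Depth per library is unknown.

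Symbols, positions and promoter windows come from RefSeq (GRCm38.p6), and 95.8% of IDs matched at E14.5 and 97.5% at E18.5. From the deposited values, Python 3.11.15 with pandas 2.3.3, NumPy 2.4.6, SciPy 1.17.1 and matplotlib 3.10.9 computed 95% intervals, the stage difference with its normal p, scaled counts, list counts and medians, and alternative adjustments. The calculations were tested on simulated data. The smallest callable log2 fold change is the Wald statistic needed for a call (4.21 at E18.5, 3.43 at E14.5) multiplied by the SE.

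The 9 genes and the lists were chosen with earlier results of these data known, and a few genes belong to more than 1 list. Named genes are the 9, Chd8, each list's called genes and its first 2 as written, and the nearest tested or overlapping genes of each member. Dmrtb1, Lhx6 and Olig2 are named outside that rule, after their values were seen. The result of 1 gene that the rule names is not reported here. The planned count model and leave-one-out fits needed values per library, so the deposited tests were used.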

Additional observations from a re-analysis of the deposited data

How the results depend on the processing

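No paired analysis was possible because the tables hold no value per library; for the same reason the fit with replicate number as a block and the fits without each replicate were not run. The count of members called at E14.5 was 1 in 6 of 7 settings. It was 0 when Wald statistics were centred and divided by their own scale (1.22 at E14.5), where Dmrta1 had an adjusted p of 0.0679. By construction a scale above 1 shrinks the statistics, and a scale below 1, such as the 0.949 at E18.5, enlarges them. The call of Dmrta1 held with every gene with a p-value in the adjustment, with genes of at least 100 counts, with Benjamini-Yekutieli adjustment and with both centrings. Members called at E18.5 and for the stage difference stayed at 0 under all alternatives run. Over all genes, the 162 calls at E14.5 (99 higher, 63 lower) became 56 with Benjamini-Yekutieli adjustment and 31 with rescaled statistics (25 higher, 6 lower); the 9 calls at E18.5 became 14 with the count minimum, 4 with Benjamini-Yekutieli adjustment and 19 with rescaled statistics. Of single genes, Ldb2, Dlx1, Hba-x, Dmrta1, Hmga2, Id2 and Neurod6 lost their call under 1 or more alternatives (11 losses in all), and no value changed direction. Low counts limit Dmrta1 and Dmrt3 at E18.5: Dmrta1 had no adjusted p there, and for Dmrt3 a rise under 138% could not have been called.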
